A study of Macaca mulatta with 6 samples.

Results

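The genes described here are 9 transcriptional targets of the tumour suppressor p53 that act in cell cycle arrest, feedback and repair: CDKN1A, MDM2, SESN1, ZMAT3, CCNG1, TP53INP1, RRM2B, FDXR and XPC. They were chosen by symbol, and 8 of the 9 had a row among the 32386 rows of the count table. TP53INP1 had none and is not analysed here. The MDM2 row carries no symbol and was identified by its gene description in the authors' deposited table.

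RNA came from 6 rhesus macaque colonies of the granulocyte-macrophage type (CFU-GM), each grown for 14 days in methylcellulose medium from a single bone marrow CD34+ stem or progenitor cell. Of these, 3 colonies were genotyped TET2 wild type (WT) and 3 were TET2+/- (labelled TET2 UA, uniallelic, with a predicted loss-of-function mutation). Both groups came from marrow taken 15 months after autologous transplantation of mobilized CD34+ cells that had been exposed to CRISPR/Cas9, so the WT colonies share the transplantation and the graft's exposure to the nuclease. The number of animals and the TET2 alleles are not stated, and a colony is the clone of 1 cell, so the p-values measure only the spread between these colonies, which may be technical.

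p53 is a transcription factor that is stabilised when DNA is damaged or growth control fails. It switches on CDKN1A, which halts the cell cycle, and MDM2, the ubiquitin ligase that marks p53 itself for destruction and so closes a feedback loop. Other targets supply nucleotides, restrain growth signalling or recognise damaged DNA. In blood stem and progenitor cells p53 limits expansion after damage, and nuclease cuts are among the lesions that activate it.

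Total counts ran from 10574104 to 25485143 in WT and from 6334264 to 17684447 in TET2 UA. Genes with any count numbered 15234 to 16817 in WT and 18721 to 21026 in TET2 UA. TET2 itself had 79.3, 92.8 and 109 CPM (counts scaled to a common library total, with TMM factors) in WT replicates 1 to 3, and 238, 225 and 229 in TET2 UA replicates 1 to 3. All 3 TET2 UA values lay above all WT values, a direction that does not check the genotype labels, since edited alleles were not read. The 3 TET2 UA libraries were much alike. Their pairwise chi-square per degree of freedom over genes was 4.29 to 5.21, where 1 would be sampling noise. WT replicates 2 and 3 gave 12.1, and the pairs with WT replicate 1, the deepest library, gave 79.0 and 82.4. Results are therefore also given with the TET2 UA libraries summed to 1 sample, a fit added after the data were seen, in which all spread comes from WT. Markers of granulocytes and macrophages were present in every library, with a summed level of 3369 to 3670 CPM in WT and 32517 to 33507 in TET2 UA for the 14 of 16 with a row, of which 9 were higher, 3 were lower and none was at 0 counts. The 3 lower were CD14 (mean 1147 CPM in WT and 21.7 in TET2 UA), SPI1 (174 and 62.6) and PTPRC (347 and 227). The groups overlapped for PTPRC, with 238.1 CPM in WT replicate 1 and 238.3 in TET2 UA replicate 1. MPO (810 and 16743) and LYZ (464 and 7600) had the highest means in TET2 UA.

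Of the 8 members, 6 were called higher in TET2 UA and 0 lower by edgeR at an adjusted p under 0.05, where 66.0% of all 13768 genes tested were called, 34.6% higher and 31.4% lower. All 8 passed the filter on low counts. No member was lower at an unadjusted p under 0.05 in edgeR, DESeq2 or limma-voom. The median log2 fold change of the 8 was 1.11, against 0.12 over all genes tested. MDM2, RRM2B, SESN1 and ZMAT3 rose by more than 1 on the log2 scale, CCNG1 and XPC by less, and CDKN1A and FDXR were not called. With the TET2 UA libraries summed, 4 of 8 stayed higher (MDM2, RRM2B, SESN1 and ZMAT3) and 0 were lower, beside 38.9% of all genes called, 21.4% higher and 17.5% lower. Levels are not compared between genes, since transcript lengths were not used. Positions come from the authors' deposited table, whose genome build is not stated there.

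**Figure D1:**
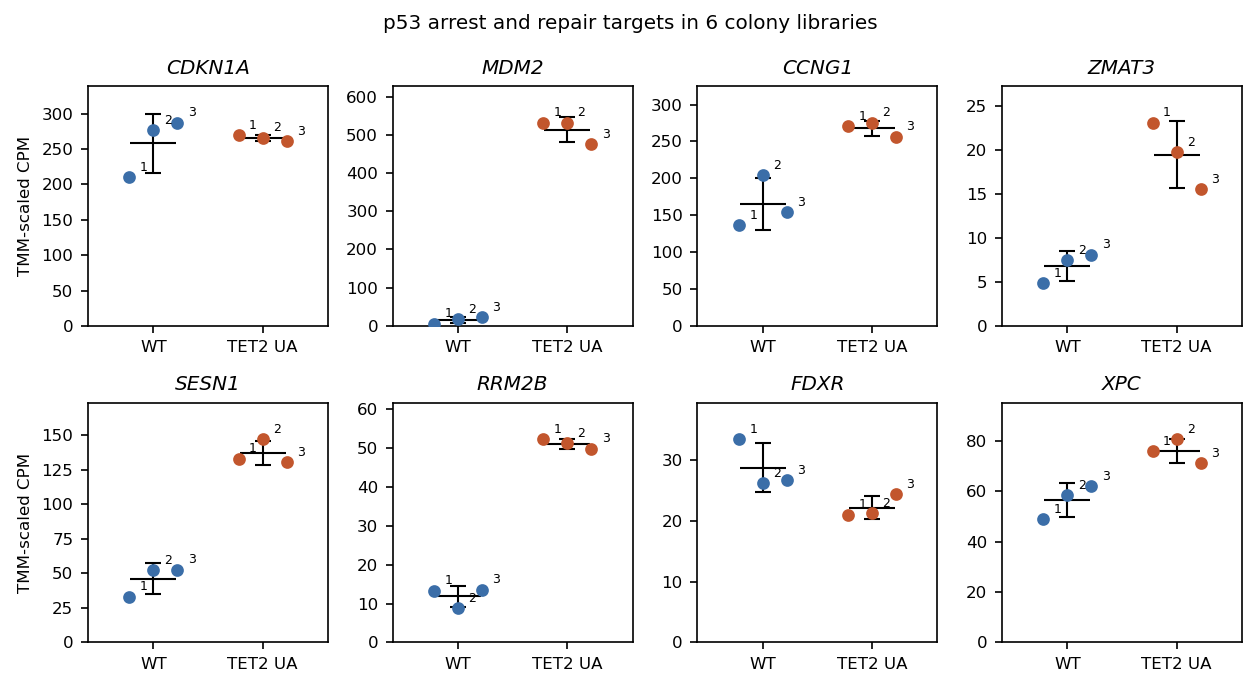
Scaled CPM (linear axes from 0) of the 8 members in each library, with 1 panel per gene. Points are libraries with their replicate number, the horizontal line is the mean and the bars are the SD (n = 3). The MDM2 values are 5.80 to 22.6 in WT and 476 to 532 in TET2 UA, whereas those of CDKN1A overlap.

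Of the members, MDM2 had the widest gap between the groups. MDM2 (ENSMMUG00000014193, chromosome 11, 67554105 to 67584615) had 5.80, 18.4 and 22.6 CPM in WT replicates 1 to 3, from 127, 192 and 268 counts. In TET2 UA it had 532, 532 and 476 CPM, from 9814, 5529 and 3221 counts. The lowest TET2 UA library held 21.1 times the level of the highest WT library. The group means were 15.6 ± 8.72 and 513 ± 32.4 CPM (SD, n = 3 each). The log2 fold change was 5.07 (SE 0.42, 95% interval 4.15 to 5.99, edgeR adjusted p = 2.88e-06), a 33.5-fold rise. Only 2.96% of all genes tested, 408 in number, had a larger one. Within WT the gene was uneven, with replicate 3 at 3.89 times replicate 1. The summed fit gave 5.10 (SE 0.48, edgeR adjusted p = 3.43e-06).

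CCNG1, or cyclin G1, is an atypical cyclin that recruits a phosphatase to MDM2. It lies on chromosome 6 from 161505417 to 161510848 and had 137, 204 and 154 CPM in WT and 271, 276 and 257 CPM in TET2 UA. The groups did not overlap, but the lowest TET2 UA library was only 1.26 times the highest WT one. CCNG1 rose by 0.70 on the log2 scale (SE 0.17, 95% interval 0.32 to 1.07, edgeR adjusted p = 0.00394). That call was lost when the TET2 UA libraries were summed (0.73, SE 0.34, edgeR adjusted p = 0.101).

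CDKN1A was not called. It encodes p21, the inhibitor of cyclin-dependent kinases through which p53 stops cells before S phase. The gene (ENSMMUG00000003210, chromosome 4, 37612941 to 37623662) had 210.3, 277 and 287 CPM in WT and 269, 266 and 261 CPM in TET2 UA. All 3 TET2 UA values fell inside the WT range. The log2 fold change was 0.04 (SE 0.16, 95% interval -0.30 to 0.38, edgeR adjusted p = 0.824), and its sign turned to -0.05 with limma-voom and -0.08 without WT replicate 1. A change in either direction within that interval is not excluded by these libraries. The values rest on 1770 to 4968 counts per library. MDM2 and CDKN1A can also be set against each other within a library, where scaling cancels. There were 0.0276, 0.0663 and 0.0785 MDM2 counts per CDKN1A count in WT replicates 1 to 3, and 1.98, 1.997 and 1.82 in TET2 UA.

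ZMAT3 encodes a zinc finger protein that binds RNA and affects splicing and transcript stability. It lies on chromosome 2 from 114197349 to 114258584 and was the least abundantly counted member, with 78 to 107 counts in WT and 105 to 426 in TET2 UA. Its CPM were 4.89, 7.46 and 8.08 in WT and 23.1, 19.7 and 15.5 in TET2 UA. The groups did not overlap, and the TET2 UA libraries differed among themselves by 1.49 times, more than for any other member. ZMAT3 rose by 1.53 on the log2 scale (SE 0.28, edgeR adjusted p = 0.000651), and the summed fit gave 1.63 (edgeR adjusted p = 0.0139).

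SESN1, or sestrin 1, restrains the growth kinase complex mTORC1 through its amino acid sensing branch and takes part in antioxidant defence. On chromosome 4 from 158826926 to 158934016, it had 33.2, 52.4 and 52.7 CPM in WT and 133, 147 and 131 CPM in TET2 UA. Every TET2 UA library was at least 2.48 times the highest WT library. The rise was 1.58 on the log2 scale (SE 0.20, 95% interval 1.13 to 2.02, edgeR adjusted p = 5.43e-05), and the summed fit gave 1.59 (edgeR adjusted p = 0.00306).

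RRM2B encodes the p53-inducible small subunit of ribonucleotide reductase, which makes deoxynucleotides for repair and for mitochondrial DNA outside S phase. It lies on chromosome 8 from 100915800 to 100955927. Its levels were 13.3, 8.80 and 13.6 CPM in WT and 52.2, 51.2 and 49.8 CPM in TET2 UA. The 2 groups stood 3.67 times apart at their nearest libraries. RRM2B rose by 2.10 on the log2 scale (SE 0.22, 95% interval 1.61 to 2.58, edgeR adjusted p = 1.37e-05), a 4.28-fold change, and by 2.13 in the summed fit (edgeR adjusted p = 0.000989). Its S phase counterpart RRM2 went the other way, from 277 ± 14.2 CPM in WT to 115 ± 5.18 in TET2 UA (SD, n = 3 each; log2 fold change -1.26, edgeR adjusted p = 1.85e-05). Within a library there were 0.0316 to 0.0507 RRM2B counts per RRM2 count in WT and 0.418 to 0.467 in TET2 UA. RRM1, the large subunit that both partner, had a log2 fold change of -0.52 (edgeR adjusted p = 0.00946), which did not pass in the summed fit (-0.48, edgeR adjusted p = 0.291).

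XPC recognises helix-distorting damage and starts nucleotide excision repair. The gene, on chromosome 2 from 52266138 to 52298895, had 49.1, 58.4 and 62.1 CPM in WT and 75.9, 80.7 and 71.0 CPM in TET2 UA. The groups were close without overlapping, with the lowest TET2 UA library at 1.14 times the highest WT one. The log2 fold change was 0.43 (SE 0.17, 95% interval 0.06 to 0.79, edgeR adjusted p = 0.0412). XPC passed narrowly, and the call was lost without WT replicate 2 (edgeR adjusted p = 0.0583), without TET2 UA replicate 1, 2 or 3 (0.118, 0.15 and 0.0803), with DESeq2 (adjusted p = 0.055), with the replicate block (edgeR adjusted p = 0.0667), with no low-count filter (0.0969) and in the summed fit (0.322).

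FDXR, or ferredoxin reductase, passes electrons to mitochondrial ferredoxin for steroid and iron-sulfur cluster synthesis, and is widely used as a marker of radiation exposure in blood. Lying on chromosome 16 from 68538685 to 68549060, it had 33.5, 26.2 and 26.7 CPM in WT and 21.03, 21.2 and 24.4 CPM in TET2 UA. Each TET2 UA library was below each WT library, yet the difference was not called (log2 fold change -0.38, SE 0.20, 95% interval -0.82 to 0.07, edgeR adjusted p = 0.119). Groups without overlap were common, at 73.2% of all genes tested (39.2% higher and 34.0% lower in TET2 UA). Among the 8 members 6 were higher and 1 lower without overlap.

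**Figure D2:**
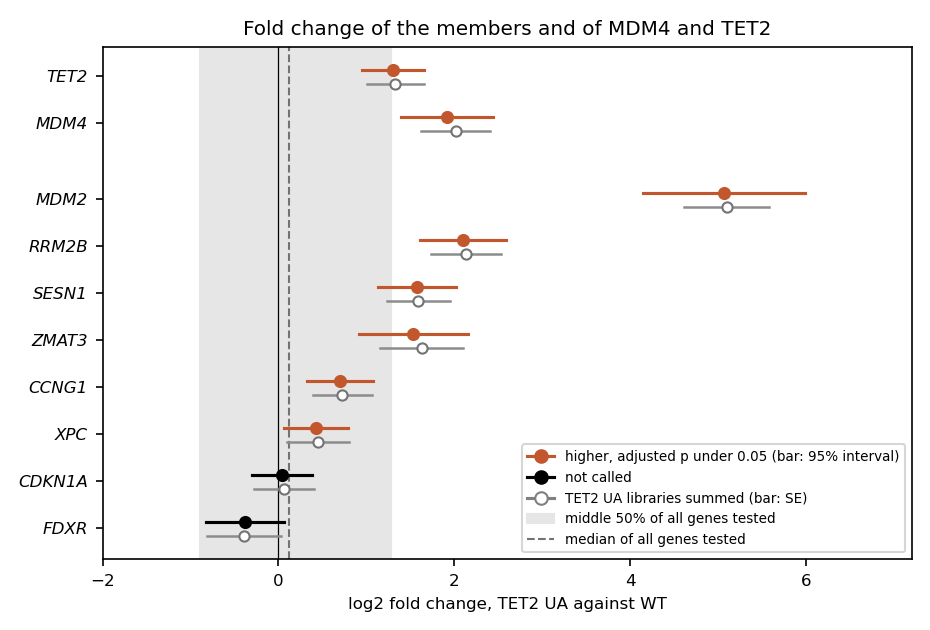
Log2 fold change of TET2 UA against WT for the 8 members and, above them, MDM4 and TET2. Filled points are the fit to 6 libraries with 95% intervals and open points the fit with the TET2 UA libraries summed, with their SE. MDM2 is at 5.07, far right of the interquartile band of all genes, while CDKN1A is at 0.04.

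The members did not move as 1 block across libraries. Profiles of log2 CPM, centred on each gene's mean, were closest for SESN1 and ZMAT3, with a root-mean-square distance of 0.17 on the log2 scale over the 6 libraries, and farthest for MDM2 and FDXR (2.89). Centring was over all 6 libraries, so these distances include the group difference and in part restate the fold changes above. The nearest member to CDKN1A was XPC (0.20). Among 9388 named genes with a mean of at least 5 CPM, the 5 closest to CDKN1A were TSC22D4, SUPT16H, EFTUD2, GTF3C2 and NRDC, at distances of 0.026 to 0.046. Within the WT group, replicate 1, the deepest library, held the lowest value for 6 of 8 members and replicate 3 the highest for 6. Within TET2 UA, the shallowest library, replicate 3, held the lowest for 7. The coefficient of variation between WT libraries was 56% for MDM2 and 11.9% to 24.9% for the other members, and in TET2 UA it was 1.49% to 19.5% for all 8.

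MDM4, the MDM2 relative that blocks the activity of p53, had 11.2, 12.7 and 9.77 CPM in WT and 48.2, 47.6 and 30.9 in TET2 UA, and rose by 1.91 on the log2 scale (SE 0.24, edgeR adjusted p = 4.56e-05). Set against each other within a library, there were 0.516, 1.44 and 2.31 MDM2 counts per MDM4 count in WT replicates 1 to 3 and 11.03, 11.2 and 15.4 in TET2 UA.

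Of 15 tested genes for p53 and its regulators, of 18 listed, 8 rose (53.3%) and 7 fell (46.7%). Of all genes tested 34.6% rose and 31.4% fell. The list median was 1.06 on the log2 scale. In the summed fit 7 were higher and 2 lower. TP73, a p53 relative that can bind the same targets, rose from 0.622 ± 0.283 to 25.3 ± 1.31 CPM (SD, n = 3 each; log2 fold change 5.40, edgeR adjusted p = 7.60e-07), and only 8, 6 and 11 counts stood behind the WT values. EP300, an acetyltransferase and p53 coactivator, rose by 2.24, and ATM, the kinase that signals double-strand breaks to p53, by 2.31 (edgeR adjusted p = 2.89e-06 and 2.15e-05). DAXX, a histone chaperone that binds MDM2, fell by 1.44 in log2 units (edgeR adjusted p = 1.23e-05).

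The death targets of p53 were mixed, with more lower than higher. Of 12 tested of 14 listed, 3 rose (PMAIP1, APAF1 and BBC3), 6 fell and 3 did not pass. Thus 25% were higher and 50% lower, beside 34.6% and 31.4% of all genes tested. The list median was -0.59 on the log2 scale. With TET2 UA summed, 2 were higher and 4 lower. BAX, which permeabilises mitochondria, had 78.6 ± 6.52 CPM in WT and 25.7 ± 1.97 in TET2 UA, and BID, which activates it, 398 ± 139 and 71.2 ± 5.38 (SD, n = 3 each). Their log2 fold changes were -1.61 and -2.48 (edgeR adjusted p = 1.52e-05 and 6.61e-06). PMAIP1, or NOXA, a BH3-only killer protein, and APAF1, the apoptosome scaffold, rose by 2.51 and 2.08 (edgeR adjusted p = 2.61e-05 and 7.23e-06). BBC3, or PUMA, had 0.168 to 0.956 CPM in WT and 1.73 to 2.60 in TET2 UA, and its call (edgeR adjusted p = 0.0361) was lost in the summed fit (0.263). The difference in direction between the lists was not tested.

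Among 20 tested of 26 other p53 targets, 13 rose and 5 fell (median 1.06 on the log2 scale), while the summed fit called 8 higher and 3 lower. The calls in the main fit were 65% higher and 25% lower, beside 34.6% and 31.4% of all genes tested. GADD45B, a stress sensor, PLK3, a stress-responsive kinase, and CYFIP2, a regulator of actin, rose by 2.40, 1.51 and 1.596 in log2 units (edgeR adjusted p = 2.38e-06, 2.05e-05 and 2.87e-05). The 5 that fell were NINJ1, DRAM1, RPS27L, TIGAR and FUCA1, with log2 fold changes of -1.71 to -0.55. DDB2, the partner of XPC in finding ultraviolet lesions, had 25.5, 21.8 and 32.8 CPM in WT and 29.4, 24.5 and 25.1 in TET2 UA, overlapping throughout. SESN2, the sister of SESN1, had a log2 fold change of 0.42 (95% interval -0.25 to 1.09, edgeR adjusted p = 0.24), whereas SESN3 rose by 2.37 (edgeR adjusted p = 0.00025).

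**Figure D3:**
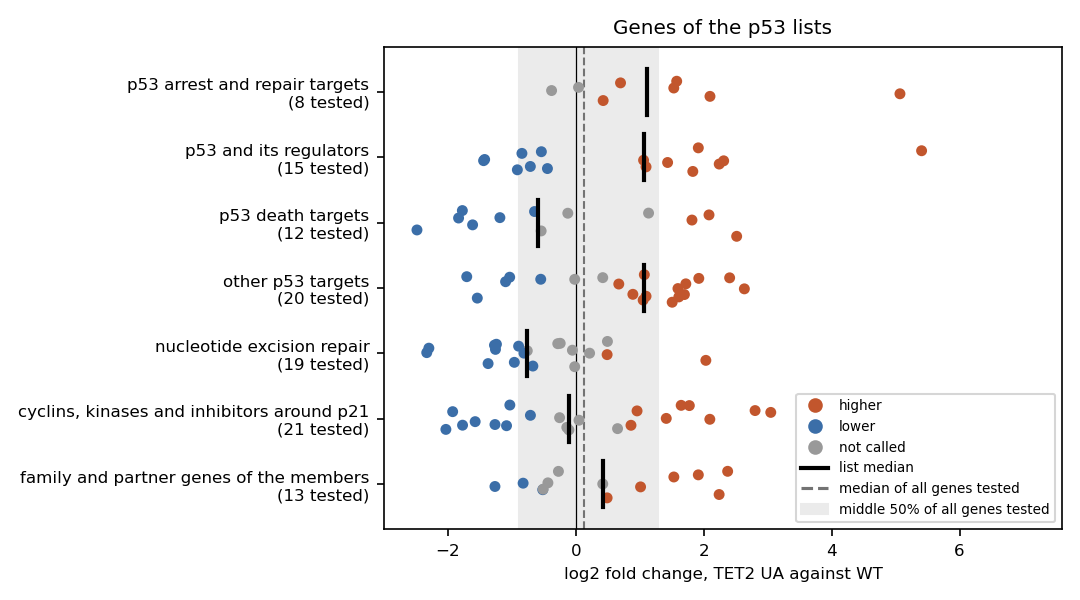
Log2 fold change of each tested gene (points, coloured by call) in the 7 lists of p53 and related genes, with the list median as a black bar. The dashed line and grey band are the median and interquartile range of all genes tested. Medians are 1.11 for the arrest and repair targets, -0.59 for the death targets and -0.76 for nucleotide excision repair.

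XPC works with the other proteins of nucleotide excision repair. Of 19 tested of 22 listed, 10 fell (52.6%), 7 did not pass and 2 rose (RAD23B and ERCC6, 10.5%). Of all genes tested 31.4% fell and 34.6% rose. The list median was -0.76 on the log2 scale. In the summed fit 6 were lower and 1 higher. RAD23B, a partner that stabilises XPC, rose by 0.49 in log2 units (edgeR adjusted p = 0.027), a call that the summed fit did not keep (edgeR adjusted p = 0.254). RPA1 and RPA2, which coat single-stranded DNA in repair and replication alike, fell by 1.24 and 2.30 on the log2 scale, and GTF2H5, a subunit of TFIIH, by 1.37 (edgeR adjusted p = 2.68e-05, 9.08e-07 and 0.000194).

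Around CDKN1A, the cyclins, kinases and inhibitors went both ways, with 8 higher, 8 lower and 5 not called among 21 tested of 22 listed. Each direction held 38.1% of those tested, beside 34.6% higher and 31.4% lower of all genes tested. The list median was -0.11 on the log2 scale. The summed fit called 5 higher and 7 lower. CCNE1 and CCNE2, the E cyclins that p21 holds in check, fell by 2.03 and 1.57, and CDK4, a kinase of the D cyclins, by 1.77 (edgeR adjusted p = 2.34e-06, 2.49e-05 and 1.16e-05). CDK6, the kinase that shares those partners, rose by 2.09, from 155 ± 47.6 CPM in WT to 663 ± 31.3 in TET2 UA (SD, n = 3 each; edgeR adjusted p = 1.43e-05). CCND3, CCNA2, CDKN2C, RB1 and E2F1 did not pass, with log2 fold changes of -0.25 to 0.65. Of 13 tested relatives and partners of the members, 6 rose and 3 fell, while 4 were higher and 1 lower with TET2 UA summed. In the main fit 46.2% of these relatives and partners were higher and 23.1% lower, beside 34.6% and 31.4% of all genes tested. CCNG2, the sister of cyclin G1 and no classical p53 target, rose by 2.24 (edgeR adjusted p = 1.29e-06), and NPRL2, RRM1 and RRM2 were the 3 lower ones.

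Taken once each, the 95 tested genes of these 6 other lists held 37 higher (38.9%) and 39 lower (41.1%), against 34.6% and 31.4% of all genes, and their median was -0.14. With TET2 UA summed, 26 were higher and 23 lower. All lists and members were chosen with earlier results of these data known, so no list was tested as a set.

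Other differences between the groups moved with these values. Summed markers of stroma and endothelium were 163 to 171 CPM in WT and 1364 to 1392 in TET2 UA (11 of 12 higher, 1 lower), those of megakaryocytes 426 to 472 and 750.4 to 766 (4 of 8 higher, 1 lower), and those of mast cells, basophils and eosinophils 93.2 to 100 and 1433 to 1546 (5 of 6 with a row higher, 0 lower). Erythroid markers summed to 311 to 347 and 590 to 641 CPM (4 of 7 with a row higher, 2 lower), and lymphoid ones to 245 to 285 and 215 to 242 (5 of 9 higher, 3 lower). Single markers that fell made up most of 3 of the WT sums: DCN of stroma (107 to 124 CPM in WT, 20.8 to 22.7 in TET2 UA), TUBB1 of megakaryocytes (411 to 456 and 191 to 220.2) and RHAG of the erythroid list (197 to 236 and 10.6 to 15.2). TFRC, which rose, made up most of the erythroid sum in TET2 UA (50.3 to 121 CPM in WT, 539 to 601 in TET2 UA). The platelet chemokine genes PF4 and PPBP went from 0.365 to 1.09 CPM in WT to 194 to 264 in TET2 UA. CD3E and IL5RA were at 0 counts in all WT libraries. In bulk colonies, fewer cells of a type and less RNA per cell cannot be told apart, and the part of these cell markers in the members' values was not tested.

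Gene span moved with the fold change too. Among 9874 genes tested that have a position in the authors' deposited table, split by span into 3 classes of nearly equal size, 18.3% of the shortest class were called higher and 47.8% lower, against 51.1% and 17.7% of the longest class. The median log2 fold changes of those classes were -0.61 and 0.73. CDKN1A, FDXR and CCNG1 lie in the shortest class, MDM2, RRM2B and XPC in the middle class and SESN1 and ZMAT3 in the longest. The median of the middle class was -0.14, where MDM2 had 5.07, RRM2B 2.10 and XPC 0.43. The part of span in the members' values was not tested.

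**Figure D4:**
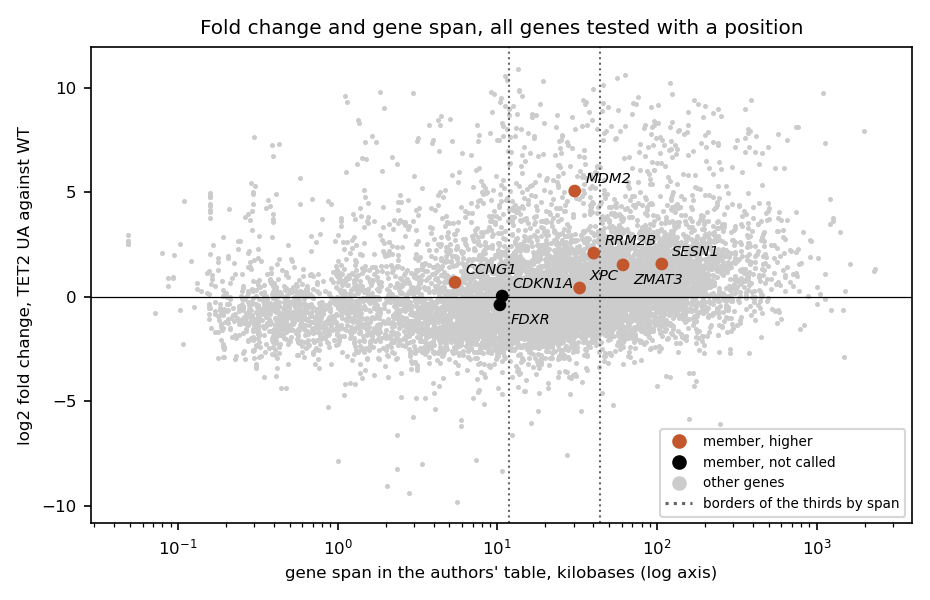
Log2 fold change of TET2 UA against WT by gene span (kilobases, log axis) for 9874 genes tested, in grey, with the 8 members named and dotted lines at the borders of the 3 classes. Grey points shift upward from left to right, from a median of -0.61 in the shortest class to 0.73 in the longest, and MDM2 lies above most genes of its span.

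The authors' deposited table lists the members with other values, from 1.11 for XPC to 4.67 for CDKN1A on the log2 scale, all with a positive sign. Which libraries it compares is not stated. For 29.3% of the rows it shares with the count table, its base mean lay above 5 times the highest count or below the lowest count divided by 5. The members' rows were not among these, but not all of their base means lay within the range of their counts. RRM2B (2814, counts 92 to 964) and ZMAT3 (632, counts 78 to 426) lay above it. SESN1 (511, counts 548 to 2457) and XPC (168, counts 481 to 1401) lay below it, and CDKN1A, MDM2, CCNG1 and FDXR within it. CDKN1A was at 4.67 there and 0.04 here, and FDXR at 2.27 there and -0.38 here. The cause of the difference was not tested. The deposited table was used for names and positions, and none of its fold changes enters the results above.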

How the data were processed

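Libraries were made with the SMART-Seq V4 and Nextera XT kits, per the labels' protocols. Strand and single molecules are not marked by these kits. The authors deposited whole-number counts per gene without normalization. Mmul_8.0.1 and bcl2fastq are named in the submitters' processing notes, while aligner and counter were not given in the sources used here. Per the file headers, the authors' deposited table holds p-values, a statistic (a score), log2 fold changes and their errors, and a signal that averages normalized counts. It names no build. Symbols came from that table for 9226 rows, its descriptions for 7, a table of gene names for 7220 and row names for 2529, and 13404 rows had none. For a repeated symbol, the row of highest total was used.

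Counts were fitted with edgeR 4.0.16 in R 4.3.3 (quasi-likelihood F-test, robust=TRUE, label as the only term, TMM factors of 0.86 to 1.07, filterByExpr with minimum count 10 and minimum total 15), checked on simulated counts. The Benjamini-Hochberg adjustment ran over all 13768 genes. A standard error is the log2 fold change over the square root of F. Counting error only is covered by depth, at 0.0457 to 0.148 CPM per count. Alternatives were other scalings, filters and thresholds, DESeq2 1.42.0, limma-voom (limma 3.58.1), a replicate block, thinning, summed rows of a symbol, libraries left out and, added later, summed TET2 UA libraries. Named genes are the members, MDM4, TET2, up to 4 called genes of smallest p per list and those behind counts of 5 or fewer. RRM2B, SESN1 and XPC are set beside their relatives RRM1, SESN2, DDB2 and RAD23B, which were chosen after their values were seen. So were MPO, LYZ, DCN, TUBB1, RHAG, TFRC, PF4 and PPBP. Some genes under this rule are not reported here. Members and lists were chosen with earlier results of these data known. No sequences were used.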

Additional observations from a re-analysis of the deposited data

How the results depend on the processing

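Each result was recomputed under 19 alternatives, 18 planned and 1 added after the data were seen (TET2 UA libraries summed). MDM2, SESN1, ZMAT3 and RRM2B kept their call and FDXR stayed uncalled under all 19, with MDM2 between 4.65 and 5.44 on the log2 scale and an adjusted p of at most 4.60e-05. CDKN1A was never called (adjusted p of 0.35 to 0.913), and its log2 fold change turned to -0.0526 with limma-voom and -0.0786 without WT replicate 1. XPC lost its call in 8 alternatives and CCNG1 in 1, the summed fit. The cause was not tested. The number of members called higher was 4 to 6, and 5 to 6 with 1 library left out, while 0 were called lower throughout. Over all genes, leaving out 1 library gave 4133 to 5371 higher and 3764 to 4578 lower, and over the other p53 lists 33 to 41 and 34 to 42. The summed fit, with fewer samples, called 2950 genes higher and 2410 lower, and 26 and 23 of the p53 list genes. Library size alone moved the median of all genes from 0.12 to 0.28. The replicate block called 4765 genes higher and 4174 lower and changed no member's call but that of XPC (0.43, edgeR adjusted p = 0.0667). Deviations from the group means correlated by 0.0129 to 0.022 between same-numbered libraries, and each library correlated best with its own number. Between libraries of unlike number the correlations were -0.0128 to -0.000345. Values this near 0 cannot decide whether same-numbered libraries were paired. ZMAT3, with 78 counts in WT replicate 2, is the member that depth limits most.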
